A study of Mus musculus with 60 samples.

Results

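The GIMAP genes (GTPases of immunity-associated proteins) were followed in CD8 T cells of mice that lack or carry the adaptor gene Sh2b3. The 8 genes Gimap1, Gimap3, Gimap4, Gimap5, Gimap6, Gimap7, Gimap8 and Gimap9 were taken by their Ensembl identifiers, 8 of the 55414 genes in the table. They were chosen after Gimap4 had been seen to be lower with an antibody against IL-2 in these libraries, so that contrast is given here as a description with no test. All 8 were found and all 8 passed the filter on low counts in every fit. The study sequenced polyA RNA of naive CD8 T cells taken by negative selection from spleens of mice of the NOD strain, which is prone to autoimmune diabetes. Its question was what loss of Sh2b3, an inhibitory adaptor of cytokine receptor and JAK signalling, does to T cells.

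All 10 groups share the NOD strain and OT-I, a transgenic T cell receptor for an ovalbumin peptide. Whether all cells carried that receptor alone was not tested. Cells of Sh2b3-/- mice and of wild-type mice were collected without stimulation (0 h, 11 libraries of each genotype) or after 2, 6 or 24 h of stimulation (5 of each genotype at each time). Stimulation was plate-bound anti-CD3 at 10 µg/mL with soluble anti-CD28 at 5 µg/mL. In a further group of each genotype, blocking anti-IL-2 at 10 µg/mL was also present for the 24 h (4 libraries each). The labels give neither the animals' ages nor whether libraries of a group came from separate animals, so p-values measure the spread between these samples.

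GIMAP proteins are GTP-binding proteins found mainly in lymphocytes, where several are anchored to membranes of organelles such as lysosomes, mitochondria and the endoplasmic reticulum. They are known for setting how long T and B cells survive: loss of Gimap5 causes lymphopenia in rats and mice, and loss of Gimap1 removes most mature T and B cells in mice. Gimap4 affects the pace at which dying T cells complete apoptosis, Gimap6 takes part in autophagy through the ATG8-like protein GABARAPL2, and Gimap3 is a close relative of Gimap5 that influences the segregation of mitochondrial DNA in mouse blood cells. Gimap7, in its human form, hydrolyses GTP when its GTPase domains dimerise, Gimap8 carries several GTPase domains in tandem, and the role of Gimap9 is little known.

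The 8 genes lie side by side on chromosome 6, in the order Gimap8, Gimap9, Gimap4, Gimap6, Gimap7, Gimap1, Gimap5 and Gimap3 by GENCODE M21, with Gimap6 and Gimap3 on the minus strand. The coding sequences of Gimap3 and Gimap5 were 90.73% identical over 895 aligned bases. Their annotated transcripts share 41 windows of 100 bases, taken at every base so that neighbouring windows overlap. These are 0.966% of the windows of Gimap5 and 1.655% of those of Gimap3, so part of their reads cannot be assigned to either with certainty. No other pair of members shares a window of that length. Gimap1 overlaps other genes over 1305 of its 3073 exonic bases, most of them with the antisense transcript Gimap1os. The sources do not state whether counting used the strand, so reads of Gimap1 and Gimap1os cannot be told apart, although Gimap1os itself was counted at group means of 4.15 to 11.7 CPM (the usual depth-scaled count of a gene, with library sizes adjusted by TMM).

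The promoter windows of Gimap4, Gimap7, Gimap3 and Gimap6 are shown because these members had the largest differences with anti-IL-2 or over the time course. Each runs from 250 bases before to 50 after the annotated start, 5′ to 3′ on the gene's own strand, as given by RefSeq for GRCm38.p6, which is another build than that of the counts. The windows are at chr6:48684328-48684627, plus strand (Gimap4), chr6:48718371-48718670, plus strand (Gimap7), chr6:48770802-48771101, minus strand (Gimap3) and chr6:48708195-48708494, minus strand (Gimap6). Capitals mark matches, on either strand, to 6 short motifs: GTAAACA (FOXO), CACCC (KLF), TTCNNNGAA (STAT), TGTGGT (RUNX), CGGAAG (ETS) and CTTTGA (TCF).
Gimap4: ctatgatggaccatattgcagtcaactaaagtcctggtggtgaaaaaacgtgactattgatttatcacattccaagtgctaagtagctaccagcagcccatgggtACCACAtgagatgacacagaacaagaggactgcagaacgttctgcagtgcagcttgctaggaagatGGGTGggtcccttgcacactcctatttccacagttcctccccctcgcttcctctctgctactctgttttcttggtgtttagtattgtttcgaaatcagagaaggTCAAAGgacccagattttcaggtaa
Gimap7: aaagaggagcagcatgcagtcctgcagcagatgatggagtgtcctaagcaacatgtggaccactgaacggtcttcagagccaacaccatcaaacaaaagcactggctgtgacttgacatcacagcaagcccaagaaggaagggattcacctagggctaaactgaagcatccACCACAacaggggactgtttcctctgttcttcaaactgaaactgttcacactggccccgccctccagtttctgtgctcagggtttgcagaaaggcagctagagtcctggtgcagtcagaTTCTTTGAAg
Gimap3: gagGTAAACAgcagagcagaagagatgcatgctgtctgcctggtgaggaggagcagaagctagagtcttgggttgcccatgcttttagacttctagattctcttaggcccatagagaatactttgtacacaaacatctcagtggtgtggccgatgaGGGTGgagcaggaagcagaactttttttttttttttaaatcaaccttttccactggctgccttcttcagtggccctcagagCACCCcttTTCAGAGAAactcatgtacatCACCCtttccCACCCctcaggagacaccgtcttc
Gimap6: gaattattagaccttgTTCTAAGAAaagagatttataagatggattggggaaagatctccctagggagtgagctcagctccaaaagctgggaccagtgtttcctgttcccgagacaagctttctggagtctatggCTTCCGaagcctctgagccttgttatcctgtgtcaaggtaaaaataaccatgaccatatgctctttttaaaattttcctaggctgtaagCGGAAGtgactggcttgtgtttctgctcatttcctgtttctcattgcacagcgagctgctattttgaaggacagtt

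The STAT motif, the palindrome read by STAT5 and other STAT proteins, occurred in 4 of the 9 member windows (Gimap8 has 2 starts) and in 8.298% of all 32851 mouse windows of this length. These were the windows of Gimap7, where it starts 41 bases after the gene's start and overlaps a TCF match, of Gimap3 (5 bases before the start), of Gimap6 (234 before) and of the second Gimap8 start (47 before). The Gimap4 window held no STAT match and 1 match each to KLF, RUNX and TCF. The FOXO motif, bound by FOXO1 in naive T cells, was found in 1 of 9 member windows (Gimap3) and in 3.65% of all windows. KLF letters were in 6 of 9 against 57.52% of all windows, RUNX in 3 against 16.76%, ETS in 4 against 16.85% and TCF in 2 against 16%. The 2 Gimap8 windows overlap, and the same KLF match and the same ETS match are counted in both. A match is a run of letters and not evidence of binding.

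The libraries held 13987029 to 35476519 counts each (median 17994613). Sh2b3 itself averaged 13.7 ± 3.21 CPM in Sh2b3-/- and 80.3 ± 8.03 CPM in wild-type cells at 0 h (SD, n = 11 each), and no Sh2b3-/- library reached a wild-type library of its time and treatment. By the numbers in their names the libraries form 4 sets, which no label explains. Set A spans 0, 2 and 6 h (5 libraries per genotype and time), and set B spans 0 and 24 h (2 per genotype and time). Set C also spans 0 h (4 per genotype) and 24 h (3 per genotype), and set D is made up of the anti-IL-2 libraries alone. Anti-IL-2 and library set therefore cannot be told apart. The markers Cd8a, Cd8b1, Cd3d, Cd3e, Cd3g, Trac, Thy1 and Lck summed to 6576 to 7725 CPM in Sh2b3-/- and 6571 to 7481 CPM in wild-type libraries at 0 h, and Cd4 averaged under 1 CPM in each group. Sums over all 60 libraries were 6.32 to 86.8 CPM for 8 B cell markers, 0 to 3.34 for 5 NK cell markers and 0 to 3.90 for 4 neutrophil markers. The 6 endothelial markers, a cell type that also expresses Gimap genes, summed to 52.4 to 196 CPM, carried by Pecam1, which T cells express too, while Cdh5, Kdr, Tie1 and Emcn averaged under 1 CPM in each group. Sh2b3-/- replicate 10 at 0 h and replicate 3 at 2 and 6 h (library numbers 8, 18 and 28) stood apart in earlier results, and a result is given without them where that changes it.

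Before stimulation Gimap3, Gimap4 and Gimap6 made up most of the family's summed level. The summed level of the 8 genes was 2893 ± 117 CPM in Sh2b3-/- and 2899 ± 139 CPM in wild-type cells at 0 h (SD, n = 11 each). Per kb of annotated exon, the scale on which levels of different genes can be set side by side, Gimap3 stood first at 372 CPM per kb in Sh2b3-/- and 368 in wild-type cells, with Gimap4 at 264 and 267 and Gimap6 at 209 and 204. Gimap8 (81.8 in Sh2b3-/- and 86.5 in wild-type cells), Gimap1 (56.4 and 56.3) and Gimap9 (52.5 and 52.3) were lower. Gimap5 (25.8 and 27.9 CPM per kb) and Gimap7 (21.9 and 23.1), in the same order of genotypes, were lowest. The member whose loss is best known for lymphopenia was thus 1 of the 2 lowest on this scale. That place depends on the annotated exon length, and which transcript forms were present was not tested. In CPM Gimap5 (107 in Sh2b3-/- and 116 in wild-type cells) stood above Gimap9 (86.1 and 85.8).

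Stimulation changed this make-up. Gimap4 supplied 24.3% of the family's summed level per kb in Sh2b3-/- cells at 0 h, 29.3% at 2 h, 34.4% at 6 h and 38.9% at 24 h, and 24.6%, 32.5%, 32.3% and 38.9% in wild-type cells at these times. Gimap6 supplied 19.3% at 0 h and 11.2% at 24 h in Sh2b3-/- cells and 18.8% and 10.7% in wild-type cells. Gimap4 thereby took the first place per kb from Gimap3, at 2 h in wild-type and at 6 h in Sh2b3-/- cells, and held it at the later times and with anti-IL-2. With anti-IL-2 its share was 33.9% in Sh2b3-/- and 30.04% in wild-type cells. The summed level of the family averaged 3526 ± 213 CPM in Sh2b3-/- and 3209 ± 27.2 CPM in wild-type cells after 2 h of stimulation (SD, n = 5 each). After 6 h the sums were 2792 ± 329 CPM in Sh2b3-/- and 2343 ± 65.8 CPM in wild-type cells, and after 24 h they were 1747 ± 355 CPM in Sh2b3-/- and 1935 ± 362 CPM in wild-type cells. These sums carry no test.

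**Figure D1:**
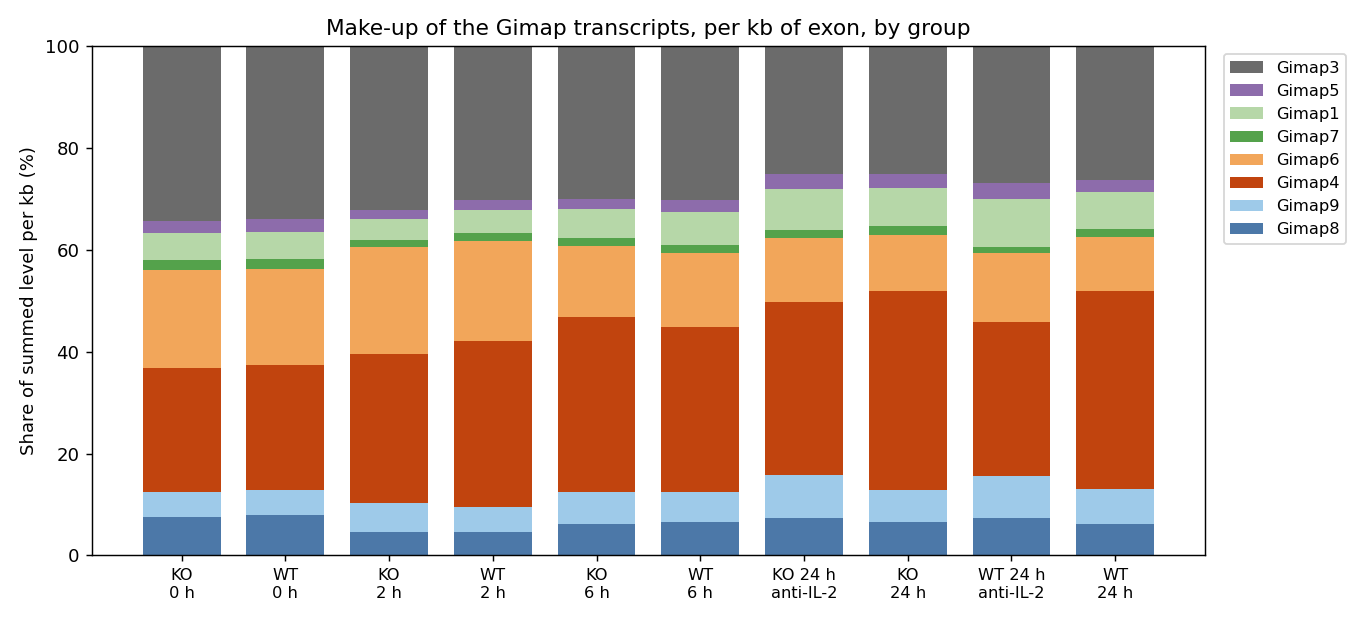
Share of each member in the summed level per kb of exon (%), 1 stacked bar for each of the 10 groups, KO being Sh2b3-/- and WT wild type. The Gimap4 band grows from 0 to 24 h in both genotypes, to 38.9% in Sh2b3-/- and 38.9% in wild-type cells, and the Gimap6 band shrinks.

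The time course asks how anti-CD3 and anti-CD28 change the family, and the rule that chose the members did not use it, although the 24 h libraries also served in the anti-IL-2 contrast. At 24 h, 5 of 8 members were lower than at 0 h in Sh2b3-/- cells, where 29.8% of all 14726 genes tested were called lower at an adjusted p of 0.05 (edgeR). In wild-type cells the same 5 were lower, where 31.6% of 14431 genes were. They were Gimap6, Gimap3, Gimap8, Gimap7 and Gimap5. None was called higher at 24 h in Sh2b3-/- cells (edgeR, 0 of 8 also at an unadjusted p under 0.05 and by DESeq2, against 30.1% of all genes), and 2 of 8, Gimap4 and Gimap9, were in wild-type cells (27.8% of all genes). The median log2 difference of the members was −0.42 in Sh2b3-/- and −0.71 in wild-type cells, beside −0.054 and −0.087 over all genes tested. The ranges at 24 h lay wholly below those at 0 h for 3 members in Sh2b3-/- cells (17% of all genes) and 5 in wild-type cells (16.4%).

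The earlier times were mixed. At 2 h, 3 members were higher and 2 lower than at 0 h in Sh2b3-/- cells (23.9% and 24.5% of all genes), and 1 was higher and 3 lower in wild-type cells (26.4% and 27.2%). At 6 h, 2 were higher and 2 lower in Sh2b3-/- cells (22.8% and 19.8% of all genes), and 1 was higher and 5 lower in wild-type cells (24.9% and 24.1%). Between 2 and 6 h the members called were all lower, 2 in Sh2b3-/- cells (13.8% of all genes) and 4 in wild-type cells (18.5%). None was called higher in either by edgeR, with 0 at an unadjusted p under 0.05 and 0 by DESeq2, where edgeR called 17% of all genes higher in Sh2b3-/- and 18.8% in wild-type cells. The levels are those of a whole culture, in which fewer cells of a type and less RNA per cell cannot be told apart. The summed CD8 T cell markers also moved with time, to 2801 to 4006 CPM in Sh2b3-/- and 2889 to 4303 CPM in wild-type libraries at 24 h. All 5 handling genes, among them Fos, Jun and Hspa1a, were called lower than at 0 h at each time in both genotypes. They summed to 482 to 3696 CPM in Sh2b3-/- and 1164 to 5608 CPM in wild-type libraries at 0 h, against 215 to 488 and 209 to 249.5 CPM at 2 h and 116 to 161 and 108 to 143 CPM at 24 h. Gamma delta T cell markers summed to 246 to 648 CPM in Sh2b3-/- and 402 to 789.7 CPM in wild-type libraries at 0 h and 129.6 to 386 and 236 to 265 CPM at 2 h, with all 4 called lower at 2 and 6 h in both. B cell markers summed to 23.2 to 58.6 and 23.1 to 48.0 CPM at 0 h and 7.23 to 12.4 and 6.32 to 13.3 CPM at 2 h. The part of these lists in the time course was not tested.

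**Figure D2:**
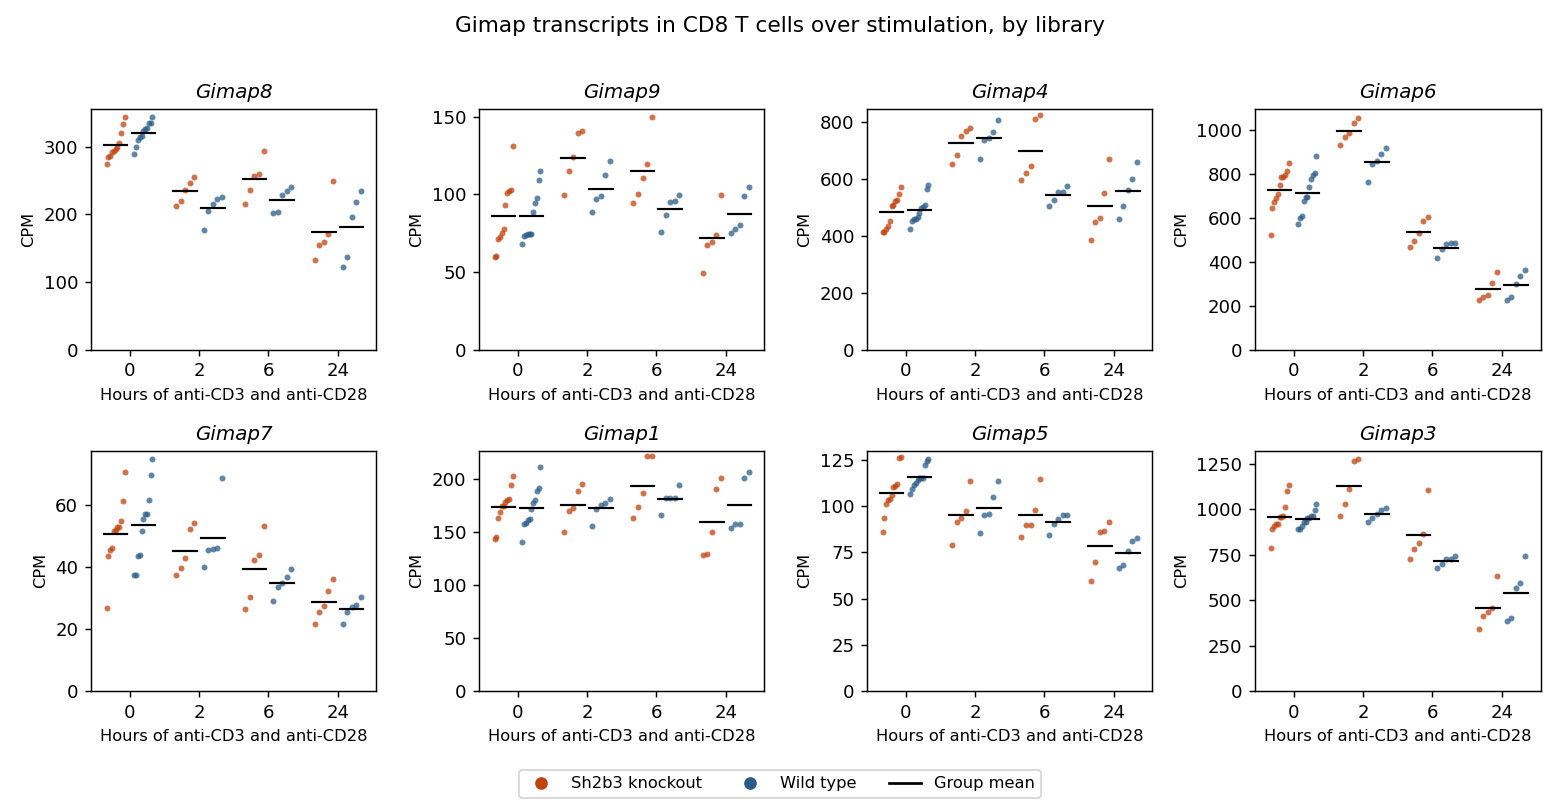
CPM of each member in every library (y axis from 0) against hours of anti-CD3 and anti-CD28, Sh2b3-/- left of wild type at each time, with the group mean as a line. The mean of Gimap4 is highest at 2 h in both genotypes, where Sh2b3-/- libraries span 655 to 782 and wild-type libraries 672 to 807 CPM, while Gimap6 falls after 2 h to 227 to 353 in Sh2b3-/- and 227 to 361 CPM in wild-type libraries at 24 h.

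Gimap4, the member tied to the pace of T cell death, rose within 2 h in both genotypes. At 0 h its level in CPM was 414 at the lowest, 507 at the median and 573 at the highest in Sh2b3-/- cells and 426 at the lowest, 481 at the median and 580.0 at the highest in wild-type cells (n = 11 each). At 2 h it was 769, 685, 782, 754 and 655 CPM in Sh2b3-/- and 807, 737, 745, 768 and 672 CPM in wild-type libraries, all above every library of the same genotype at 0 h. The rise was 0.52 ± 0.12 log2 units in Sh2b3-/- (SE, adjusted p = 6.1e-04) and 0.50 ± 0.080 in wild-type cells (adjusted p = 2.2e-06). At 6 h the Sh2b3-/- libraries held 646, 624, 813, 596 and 825 CPM and the wild-type libraries 554, 505, 577, 527 and 556 CPM, so each Sh2b3-/- library was above each wild-type one. Against 0 h the 6 h level was 0.52 ± 0.12 log2 units higher in Sh2b3-/- cells (adjusted p = 8.2e-04), while the wild-type difference of 0.079 ± 0.080 did not pass (adjusted p = 0.44). Between 2 and 6 h Gimap4 fell by 0.42 ± 0.080 log2 units in wild-type cells (adjusted p = 7.2e-05), and in Sh2b3-/- cells the adjusted p was 0.99. The test of the difference between genotypes is given further on.

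At 24 h Gimap4 stood at 386, 670.3, 450.3, 464 and 552 CPM in Sh2b3-/- and 659.8, 562, 599, 459.7 and 505 CPM in wild-type libraries, in each case with replicates 1 to 3 from set C and 4 and 5 from set B, and the ranges overlapped those at 0 h. The difference from 0 h was 0.27 ± 0.076 log2 units in wild-type cells (adjusted p = 0.0027) and 0.18 ± 0.11 in Sh2b3-/- cells (adjusted p = 0.17). The members were chosen on Gimap4 in a contrast that used these same 24 h libraries, so this difference is not an independent test. In set B alone the wild-type call was lost (0.077, adjusted p = 0.55). Gimap4 was thus the only member whose mean in CPM was above its 0 h mean at 2, 6 and 24 h in both genotypes, with 504 ± 110.0 against 484 ± 57.0 CPM in Sh2b3-/- cells and 557 ± 78.3 against 491 ± 47.1 CPM in wild-type cells at 24 h and 0 h (SD).

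Of the members needed for lymphocyte survival, Gimap5 was lower at 24 h in both genotypes and Gimap1 was called at 6 h alone. Gimap5 at 0 h was 85.7 at the lowest, 106 at the median and 127 at the highest CPM in Sh2b3-/- cells and 106 at the lowest, 115 at the median and 126 at the highest CPM in wild-type cells. At 24 h it was 59.5, 86.4, 69.6, 86.0 and 91.4 CPM in Sh2b3-/- and 81.4, 66.4, 68.4, 75.5 and 82.7 CPM in wild-type libraries. The wild-type ranges did not overlap and the Sh2b3-/- ranges did. The change was −0.31 ± 0.11 log2 units in Sh2b3-/- cells (adjusted p = 0.018) and −0.61 ± 0.076 in wild-type cells (adjusted p = 1.3e-08). The Sh2b3-/- call was lost without replicate 1 at 24 h (−0.22, adjusted p = 0.097), without replicate 3 (−0.27, adjusted p = 0.059) and in set B alone (−0.044, adjusted p = 0.86). At 2 h Gimap5 was at −0.27 ± 0.11 in Sh2b3-/- (adjusted p = 0.049) and −0.25 ± 0.078 in wild-type cells (adjusted p = 0.0066). The Sh2b3-/- value at 2 h passed by little, and was not called by DESeq2 (adjusted p = 0.058) or without any of replicates 1, 2, 3 and 5 at 2 h (adjusted p = 0.087, 0.070, 0.094 and 0.14). Nor was it called without libraries 8, 18 and 28 (−0.28, adjusted p = 0.076).

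Gimap1 stayed within a span of 1.78 times between its lowest and highest group mean over all 10 groups, the narrowest of the 8. Its means over 0, 2, 6 and 24 h were 173 ± 18.1, 175 ± 17.5, 194 ± 27.2 and 160.0 ± 34.1 CPM in Sh2b3-/- and 173 ± 19.7, 172 ± 9.94, 182 ± 9.88 and 175 ± 25.9 CPM in wild-type cells (SD). A small rise at 6 h was called in Sh2b3-/- (0.31 ± 0.12, adjusted p = 0.033) and wild-type cells (0.22 ± 0.079, adjusted p = 0.019), with ranges that overlapped those at 0 h. It was lost in Sh2b3-/- cells without replicate 1 or 5 at 6 h (adjusted p = 0.091 and 0.092) and in wild-type cells without replicate 1, 2 or 3 (adjusted p = 0.061, 0.059 and 0.056). The differences at 2 and 24 h did not pass in either genotype.

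Gimap3, the close relative of Gimap5 and the most abundant member at rest, fell late. It was 785 at the lowest, 956 at the median and 1133 at the highest CPM in Sh2b3-/- and 891 at the lowest, 952 at the median and 1031 at the highest CPM in wild-type cells at 0 h. At 24 h it was 413, 632, 436, 344 and 455 CPM in Sh2b3-/- and 745, 567, 594, 400.3 and 387 CPM in wild-type libraries, all below the lowest library of the same genotype at 0 h. The fall at 24 h came to −1.08 ± 0.12 log2 units in Sh2b3-/- (adjusted p = 1.1e-08) and −0.84 ± 0.081 in wild-type cells (adjusted p = 5.4e-11). Within the 24 h wild-type libraries, set C averaged 635 and set B 394 CPM. At 2 h Gimap3 was higher in Sh2b3-/- cells (0.34 ± 0.12, adjusted p = 0.021), a call lost without Sh2b3-/- replicate 4 or 5 at 2 h (adjusted p = 0.064 and 0.062), and at 0.058 ± 0.084 in wild-type cells (adjusted p = 0.59). At 6 h it was lower in wild-type cells (−0.35 ± 0.084, adjusted p = 6.2e-04), whereas in Sh2b3-/- cells the adjusted p was 1.0. From 2 to 6 h it fell in Sh2b3-/- cells (−0.34 ± 0.12, adjusted p = 0.033) and in wild-type cells (−0.41 ± 0.084, adjusted p = 1.7e-04). The Sh2b3-/- call was lost when any 1 library was left out, except replicates 2 and 3 at 2 h and replicate 5 at 6 h, with adjusted p up to 0.097. It was also lost without libraries 8, 18 and 28 (−0.35, adjusted p = 0.058).

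Gimap6, the autophagy-linked member, changed most. At 0 h it was 523 at the lowest, 752 at the median and 851 at the highest CPM in Sh2b3-/- and 572 at the lowest, 694 at the median and 884 at the highest CPM in wild-type cells. At 2 h it was 968, 931, 1031, 1054 and 986 CPM in Sh2b3-/- and 763, 848, 861, 891 and 918 CPM in wild-type libraries, with every Sh2b3-/- library above every wild-type one. At 6 h it was 604, 496, 468, 532 and 585 CPM in Sh2b3-/- and 484, 485, 416, 460.2 and 479.9 CPM in wild-type libraries. By 24 h it had fallen to 227, 353, 247, 238 and 306 CPM in Sh2b3-/- and 361, 299, 337, 242 and 227 CPM in wild-type libraries, below all libraries of the earlier times in the same genotype. Against 0 h, the 2 h level was 0.30 ± 0.11 log2 units higher in Sh2b3-/- cells (adjusted p = 0.018, but 0.061 without libraries 8, 18 and 28) and 0.091 ± 0.084 in wild-type cells (adjusted p = 0.39). The 6 h level was at −0.53 ± 0.11 in Sh2b3-/- (adjusted p = 1.7e-04) and −0.75 ± 0.085 in wild-type cells (adjusted p = 3.4e-09). The 24 h level was at −1.20 ± 0.10 in Sh2b3-/- (adjusted p = 1.5e-10) and −1.13 ± 0.083 in wild-type cells (adjusted p = 7.5e-14). The step from 2 to 6 h alone was −0.84 ± 0.11 in Sh2b3-/- (adjusted p = 1.1e-06) and −0.84 ± 0.085 in wild-type cells (adjusted p = 1.1e-09).

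Gimap8, the member with tandem GTPase domains, was lower from 2 h on. Its level was 275 at the lowest, 297 at the median and 344 at the highest CPM in Sh2b3-/- and 289.6 at the lowest, 324 at the median and 344 at the highest CPM in wild-type cells at 0 h, and 237, 212, 219, 256 and 246 CPM in Sh2b3-/- and 222, 206, 216, 177 and 225 CPM in wild-type libraries at 2 h, below all libraries of the same genotype at 0 h. The 2 h difference was −0.37 ± 0.11 log2 units in Sh2b3-/- (adjusted p = 0.0086) and −0.65 ± 0.090 in wild-type cells (adjusted p = 1.6e-07). At 6 h it passed in wild-type cells (−0.53 ± 0.089, adjusted p = 6.7e-06) and was at −0.21 ± 0.11 in Sh2b3-/- cells (adjusted p = 0.14). At 24 h it was at −0.74 ± 0.11 in Sh2b3-/- (adjusted p = 1.8e-06) and −0.80 ± 0.087 in wild-type cells (adjusted p = 6.9e-10).

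Gimap7, the GTPase that hydrolyses GTP on dimerising in human, was the least abundant member and was lower at 6 and 24 h in both genotypes. Its medians were 52.1 CPM in Sh2b3-/- and 55.6 CPM in wild-type cells at 0 h. At 24 h it was 27.4, 36.2, 25.5, 32.4 and 21.7 CPM in Sh2b3-/- and 30.4, 27.7, 27.3, 25.4 and 21.8 CPM in wild-type libraries. The wild-type ranges at 24 and 0 h did not overlap, whereas the Sh2b3-/- ranges did, through 1 library of 26.97 CPM at 0 h. The 24 h difference was −0.53 ± 0.17 log2 units in Sh2b3-/- (adjusted p = 0.0080, lost in set B alone at 0.38) and −0.80 ± 0.13 in wild-type cells (adjusted p = 3.6e-06). At 6 h it was at −0.53 ± 0.17 in Sh2b3-/- (adjusted p = 0.014) and −0.82 ± 0.14 in wild-type cells (adjusted p = 4.7e-06), the Sh2b3-/- call being lost without the library set term (−0.34, adjusted p = 0.084). The 2 h values were −0.37 ± 0.17 in Sh2b3-/- (adjusted p = 0.074, and 0.036 with library numbers as a replicate block) and −0.36 ± 0.14 in wild-type cells (adjusted p = 0.026). The wild-type call at 2 h was lost without replicate 1, 2, 3 or 5 (adjusted p = 0.079, 0.073, 0.055 and 0.058) and gained in size without replicate 4, at −0.51, adjusted p = 0.0013. Without replicate 4 at 2 h, the wild-type fall from 2 to 6 h, −0.47 ± 0.14 with all libraries (adjusted p = 0.0065), was −0.31, adjusted p = 0.062.

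Gimap9 was called once against 0 h in the fits with a term for library set, and its calls depended on that term. Its means at 0, 2, 6 and 24 h were 86.1 ± 21.9, 124 ± 17.3, 115 ± 21.8 and 71.9 ± 18.1 CPM in Sh2b3-/- and 85.8 ± 16.2, 104 ± 13.1, 90.6 ± 9.58 and 87.4 ± 13.4 CPM in wild-type cells (SD). With that term the call was at 24 h in wild-type cells (0.26 ± 0.088, adjusted p = 0.010), although the wild-type means at 24 and 0 h were nearly equal. Without the library set term Gimap9 was called at 2 h, at 0.50, adjusted p = 0.0073 in Sh2b3-/- and 0.25, adjusted p = 0.043 in wild-type cells, and at 6 h in Sh2b3-/- cells (0.45, adjusted p = 0.018). The 24 h call was lost without the library set term (0.046, adjusted p = 0.73) and in set B alone (0.22, adjusted p = 0.12).

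**Figure D3:**
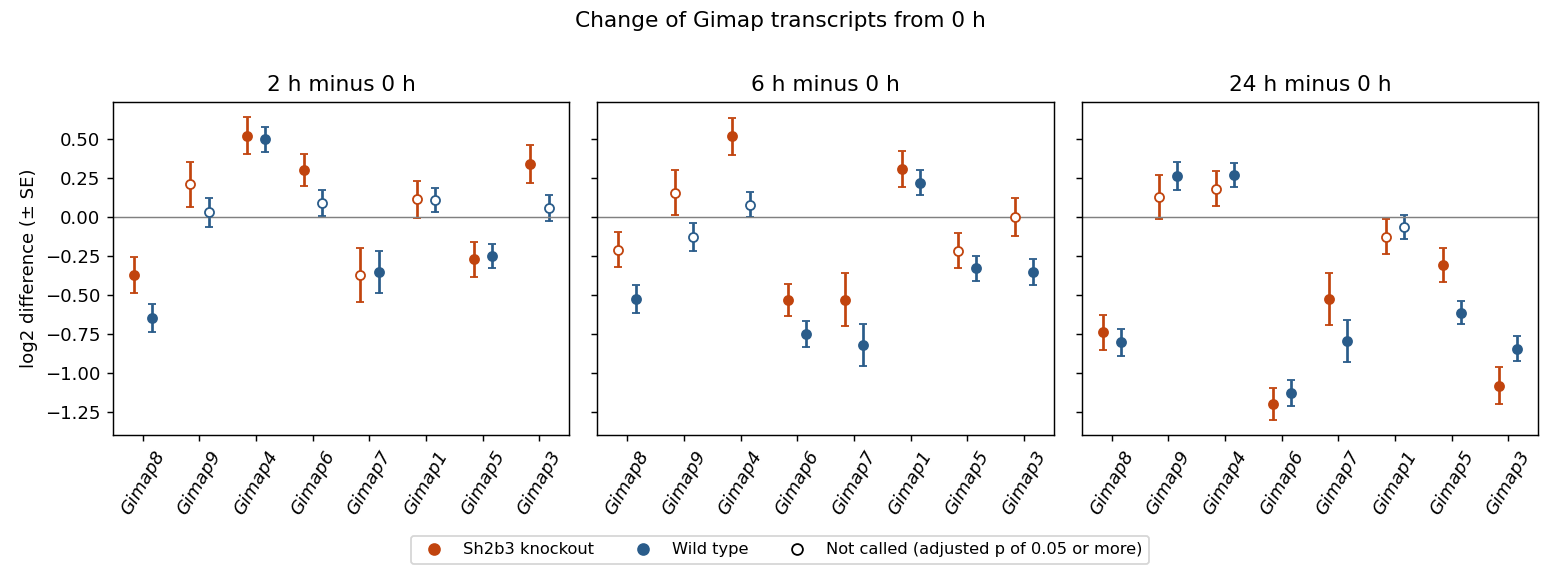
Log2 difference from 0 h at 2, 6 and 24 h for each member (± SE), Sh2b3-/- left of wild type, filled where called at an adjusted p under 0.05 and open where not. Gimap6 lies lowest at 24 h, at −1.20 in Sh2b3-/- and −1.13 in wild-type cells, and Gimap4 lies highest at 2 h, at 0.52 and 0.50.

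IL-2, made by T cells after stimulation, acts on the same cells through a receptor that signals by JAK1, JAK3 and STAT5, and the anti-IL-2 groups ask what its blockade changes at 24 h. All 8 members were below their level without the antibody in both genotypes. Since members were chosen on this contrast, its values are a description. Gimap4 stood at 278, 315, 258 and 255 CPM with anti-IL-2 against 386, 670.3, 450.3, 464 and 552 CPM without it in Sh2b3-/- libraries, and 234, 243, 245 and 257 CPM with against 659.8, 562, 599, 459.7 and 505 CPM without it in wild-type libraries. No library with anti-IL-2 reached any library without it, and the means were 45.1% lower in Sh2b3-/- and 56.1% lower in wild-type cells. The fitted difference was −0.87 log2 units in Sh2b3-/- and −1.19 in wild-type cells, and the difference between the genotypes was not tested. Gimap4 with anti-IL-2 was also below its level at 0 h, 2 h and 6 h in every library of the same genotype.

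Gimap7 had the next largest difference. It stood at 15.6, 17.5, 20.01 and 11.3 CPM with anti-IL-2 against 27.4, 36.2, 25.5, 32.4 and 21.7 CPM without it in Sh2b3-/- libraries, and 11.8, 14.9, 12.2 and 16.2 CPM with against 30.4, 27.7, 27.3, 25.4 and 21.8 CPM without it in wild-type libraries. Groups did not overlap in either genotype, and the fitted difference was −0.83 log2 units in Sh2b3-/- and −0.95 in wild-type cells. Gimap3 was 307, 337, 242 and 269 CPM with anti-IL-2 in Sh2b3-/- and 320.2, 302, 294 and 318 CPM in wild-type libraries, all below the libraries without it given above. Its fitted difference was −0.66 log2 units in Sh2b3-/- and −0.81 in wild-type cells. Gimap6 was 211, 209.5, 187 and 177 CPM with anti-IL-2 in Sh2b3-/- and 219, 213, 204 and 206 CPM in wild-type libraries, again with no overlap, and its fitted difference was −0.48 log2 units in Sh2b3-/- and −0.48 in wild-type cells.

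Fitted differences of the remaining members were −0.53 in Sh2b3-/- and −0.60 in wild-type cells for Gimap8, −0.55 and −0.47 for Gimap1, −0.53 and −0.40 for Gimap5, and −0.21 and −0.53 for Gimap9. Gimap8 was at 103 to 137.5 CPM with anti-IL-2 against 132.5 to 249 CPM without it in Sh2b3-/- cells and at 111 to 131.6 against 123 to 235 CPM in wild-type cells, so its groups overlapped in both. Gimap1 was at 93.4 to 119 against 129 to 201 CPM in Sh2b3-/- and 116 to 139 against 154.02 to 206 CPM in wild-type cells, with no overlap in either. Gimap5 was at 47.2 to 61.2 with the antibody against 59.5 to 91.4 CPM without it in Sh2b3-/- cells, where the groups overlapped, and at 54.8 to 58.0 against 66.4 to 82.7 CPM in wild-type cells, where they did not. Gimap9 overlapped in Sh2b3-/- cells (55.2 to 68.0 with anti-IL-2 against 49.3 to 99.5 CPM without it) and not in wild-type cells (55.1 to 65.7 against 75.3 to 105 CPM). In all, 5 of 8 members in Sh2b3-/- and 7 of 8 in wild-type cells lay wholly below the libraries without the antibody, where 5.03% and 5.32% of all genes tested did; since the members were chosen on this contrast, nothing is read from these counts. The members' median was −0.54 log2 units in Sh2b3-/- and −0.56 in wild-type cells.

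All libraries with anti-IL-2 belong to set D, and the 24 h libraries without it to sets B and C, which differed in level. Gimap4 averaged 508 CPM in set B and 502 CPM in set C in Sh2b3-/- cells, and 482 and 607 CPM in wild-type cells. Gimap3 in wild-type cells averaged 394 CPM in set B and 635 CPM in set C. Against set B alone (n = 2) all 8 members had lower means with anti-IL-2 in both genotypes, and 6 in Sh2b3-/- and 7 in wild-type cells did not overlap. Against set C alone (n = 3) all 8 were again lower, with 6 and 8 not overlapping. The summed CD8 T cell markers were 2479.8 to 2773 CPM with anti-IL-2 against 2801 to 4006 CPM without it in Sh2b3-/- and 2534 to 2568 against 2889 to 4303 CPM in wild-type libraries, below those without the antibody in both, and their part in the Gimap differences was not tested.

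**Figure D4:**
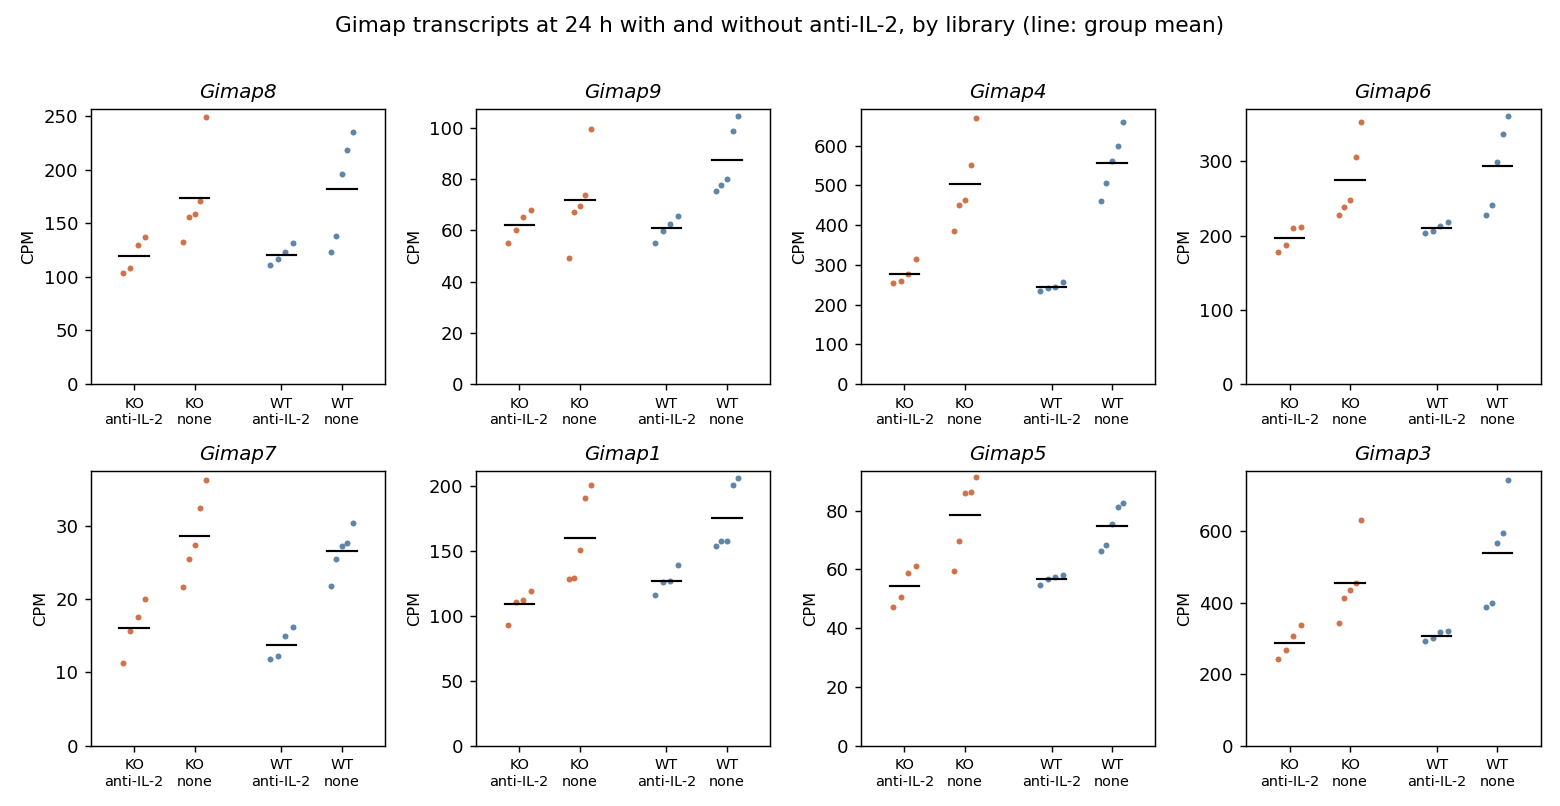
CPM of each member at 24 h in every library (y axis from 0), with anti-IL-2 left of no antibody, for KO (Sh2b3-/-) and WT (wild type), with the group mean as a line. Gimap4 spans 255 to 315 CPM with anti-IL-2 and 386 to 670.3 CPM without it in Sh2b3-/- cells, and 234 to 257 and 459.7 to 659.8 CPM in wild-type cells.

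The direct comparison of genotypes asks what loss of Sh2b3 does to the family at each time, and it was not used in choosing the members. No member was called at 0, 2, 6 or 24 h or with anti-IL-2 by edgeR or by DESeq2, where edgeR called 0.633%, 0.0647%, 0.0306%, 0.372% and 0.35% of all genes tested in these 5 comparisons. At an unadjusted p under 0.05 the counts were 1, 3, 3, 0 and 2 of 8. The shares of all genes just given are at an adjusted p and are no measure for these counts, from which nothing is read. The log2 differences, Sh2b3-/- minus wild type, ran from −0.12 to 0.032 at 0 h, −0.12 to 0.25 at 2 h, 0.037 to 0.35 at 6 h, −0.29 to 0.10 at 24 h and −0.22 to 0.23 with anti-IL-2.

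At 0 h the levels given above overlapped for all 8 members. Gimap5 had the lowest p, at 107 ± 12.2 CPM in Sh2b3-/- and 116 ± 6.198 CPM in wild-type cells (SD, n = 11 each), a difference of −0.12 ± 0.051 log2 units (95% interval −0.22 to −0.012, adjusted p = 0.40). Gimap8 came next, at −0.084 ± 0.044 (95% interval −0.17 to 0.0055, adjusted p = 0.52), with 0.18, adjusted p = 0.86 in set B alone. At 2 h the Sh2b3-/- libraries of Gimap6 lay above all wild-type libraries, as 1 member of 8 where 1.37% of all genes did so, and the difference was 0.21 ± 0.070 (95% interval 0.063 to 0.36, adjusted p = 0.26). Gimap3 was at 1114, 966, 1029.7, 1277 and 1265 CPM in Sh2b3-/- and 996, 973, 1009, 954 and 932 CPM in wild-type libraries at 2 h, ranges that overlap, with a difference of 0.21 ± 0.086 (adjusted p = 0.33).

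At 6 h all 8 members had a higher fitted level in Sh2b3-/- cells, with a median of 0.18 log2 units beside −0.0041 over all genes tested. Gimap4, whose libraries are given above, averaged 701 ± 109.6 CPM in Sh2b3-/- and 544 ± 28.1 CPM in wild-type cells (SD, n = 5 each) and did not overlap, as 1 of 8 members where 0.764% of all genes lay wholly higher. The difference was 0.35 ± 0.11 log2 units (95% interval 0.12 to 0.57), and it did not pass over all genes (adjusted p = 0.75). Gimap9 was at 110.3, 100.4, 120.0, 94.4 and 150.0 CPM in Sh2b3-/- and 86.8, 95.1, 75.7, 99.7 and 95.9 CPM in wild-type libraries, with a difference of 0.33 ± 0.12 (95% interval 0.058 to 0.59, adjusted p = 0.80). The spread among Sh2b3-/- libraries was wider than among wild-type libraries for Gimap4 at 6 h, with SDs of 109.6 and 28.1 CPM, and Sh2b3-/- replicates 3 and 5 were the highest. Of the marker lists, gamma delta T cell genes summed to 145 to 385 CPM in Sh2b3-/- and 215 to 285 CPM in wild-type libraries at 6 h, and handling genes such as Fos and Jun to 149.9 to 365 and 144 to 173 CPM. Their part in these differences was not tested.

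At 24 h the members' values were mixed and depended on the library set. Gimap9 was at −0.29 ± 0.15 log2 units (95% interval −0.61 to 0.038, adjusted p = 0.49) and Gimap3 at −0.22 ± 0.14 (95% interval −0.51 to 0.071, adjusted p = 0.56). The median of the 8 was 0.14 in set B alone and −0.28 in set C alone. Gamma delta T cell markers summed to 94.6 to 186 CPM in Sh2b3-/- and 195 to 296 CPM in wild-type libraries at 24 h, and to 73.8 to 110.5 and 114 to 135.7 CPM with anti-IL-2, without overlap in either, and their part was not tested. With anti-IL-2, Gimap1 was at 111, 119, 112 and 93.4 CPM in Sh2b3-/- and 126, 139, 127 and 116 CPM in wild-type libraries, a difference of −0.22 ± 0.083 (95% interval −0.40 to −0.049, adjusted p = 0.38). Gimap4 was at 0.18 ± 0.069 (95% interval 0.031 to 0.32, adjusted p = 0.41), and the lowest Sh2b3-/- library, at 255 CPM, lay below the highest wild-type library, at 257 CPM.

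Whether the response to stimulation differed between genotypes was tested with the genotype by time term. No member was called at 2, 6 or 24 h by edgeR or DESeq2, where edgeR called 0%, 0% and 0.14% of all 15762 genes at an adjusted p under 0.05. An unadjusted p under 0.05 was found for 0, 3 and 0 of 8, with no share of all genes at that threshold to set beside them. At 6 h all 8 terms were above 0, from 0.10 to 0.39, beside a median of 0.027 over all genes. Gimap4 was at 0.39 ± 0.12 log2 units (95% interval 0.15 to 0.64, adjusted p = 0.71) and Gimap9 at 0.36 ± 0.15 (95% interval 0.059 to 0.66, adjusted p = 0.90). The terms ran from −0.040 to 0.26 at 2 h, with Gimap9 at 0.26 ± 0.15 (adjusted p = 0.84), and from −0.24 to 0.22 at 24 h, with Gimap5 at 0.20 ± 0.11 (adjusted p = 0.47) and Gimap3 at −0.22 ± 0.13 (adjusted p = 0.51). At 6 h the intervals of Gimap4 and Gimap9 reach 0.64 and 0.66, above the rise of Gimap4 at 2 h (0.52 in Sh2b3-/- and 0.50 in wild-type cells). The absence of calls therefore does not show that the genotypes responded alike.

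**Figure D5:**
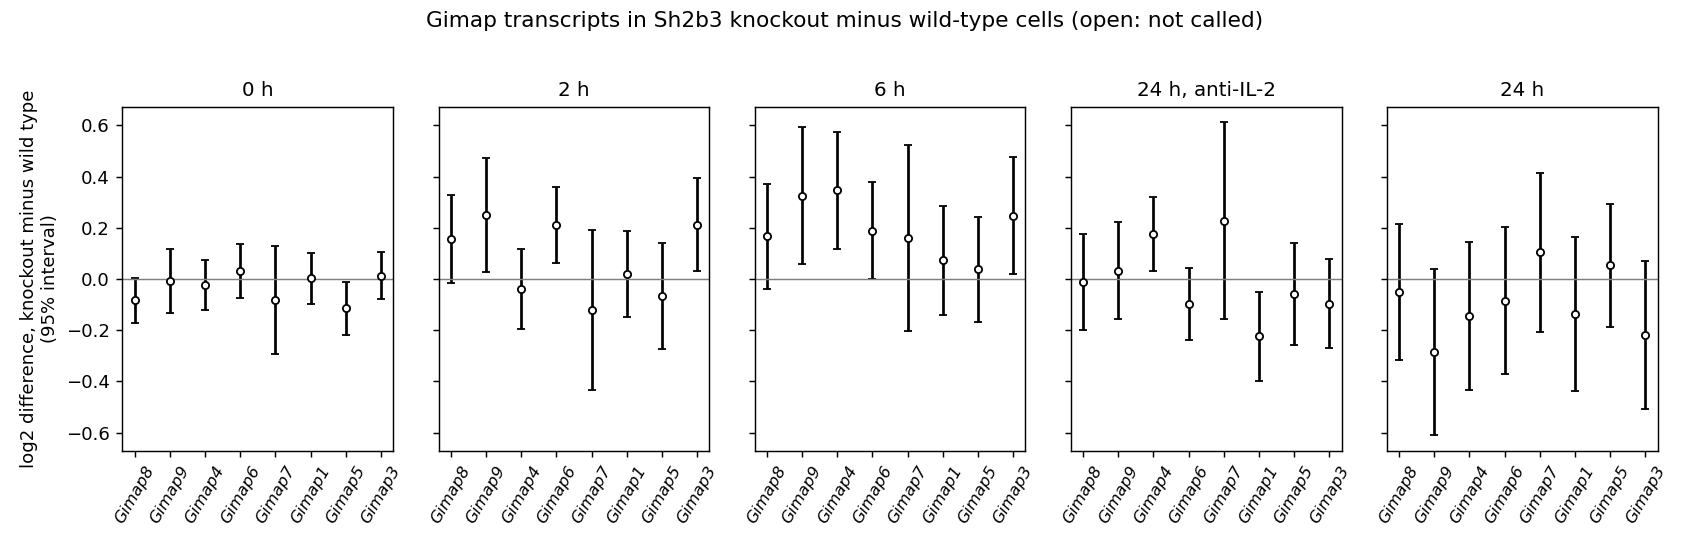
Log2 difference, Sh2b3-/- minus wild type, of each member with its 95% interval at 0, 2 and 6 h and at 24 h with and without anti-IL-2, all open because none was called at an adjusted p under 0.05. At 6 h all 8 points lie above 0, from 0.037 to 0.35.

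Over the 10 groups the members ranged together but not to the same extent. The highest group mean was 5.06 times the lowest for Gimap6, 3.92 for Gimap3, 3.89 for Gimap7, 3.05 for Gimap4 and 2.67 for Gimap8. It was 2.12 for Gimap5 and 2.04 for Gimap9. The anti-IL-2 groups had the lowest 2 means of all 10 for each of the 8. For Gimap4 the libraries of the next lowest group did not overlap them, and neighbours in the order of the other 8 groups, from wild type at 2 h (746 ± 49.3 CPM) down to Sh2b3-/- at 0 h (484 ± 57.0 CPM), all overlapped. For Gimap6 the order was Sh2b3-/- at 2 h, wild type at 2 h, Sh2b3-/- and wild type at 0 h, Sh2b3-/- and wild type at 6 h, wild type and Sh2b3-/- at 24 h, and last anti-IL-2. Its breaks without overlap fell after Sh2b3-/- at 2 h, after wild type at 6 h and after Sh2b3-/- at 24 h. Across the 10 group means, log2 CPM of Gimap7 and Gimap5 had the highest correlation of any pair of members (r = 0.982), with Gimap6 and Gimap3 at 0.977, and Gimap8 and Gimap9 the lowest (0.672). The group means share libraries' depth and the same stimulation. They also include the anti-IL-2 groups, whose contrast served to choose the members. The spans, orders and correlations are therefore descriptions.

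Among 9315 genes averaging 4 CPM or more, those whose 10 group means were most like the mean standardised profile of the family were S1pr1 (r = 0.991), Gpr146 (r = 0.990), Eva1b (r = 0.989), F2rl1 (r = 0.988), Klf3 (r = 0.987) and Sfn (r = 0.987). S1pr1, the sphingosine-1-phosphate receptor by which T cells leave lymph nodes, averaged 476 CPM in Sh2b3-/- and 462 CPM in wild-type cells at 0 h, 183 and 254 CPM at 24 h, and 82.1 and 75.9 CPM with anti-IL-2. Most like Gimap4 alone were Cdc42se2 (r = 0.981), Il7r (r = 0.976), Tmem110 (r = 0.964), Slfn1 (r = 0.958), Crlf3 (r = 0.956) and Ss18l1 (r = 0.946). Il7r, the receptor chain for the survival cytokine IL-7, averaged 333 CPM in Sh2b3-/- and 368 CPM in wild-type cells at 0 h, 609 and 558 CPM at 2 h, 388 and 527 CPM at 24 h, and 187 and 162 CPM with anti-IL-2. These genes were picked for their likeness, over means that include the anti-IL-2 groups, and carry no test.

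Other genes of the same biology were read from lists chosen with earlier results of these data known. Of 20 genes of naive and quiescent T cells, 4 were higher and 15 lower at 24 h than at 0 h in Sh2b3-/- cells (median −1.05 log2 units) and 4 higher and 15 lower in wild-type cells (median −0.83), beside the medians of all genes given above. Of all genes tested, 30.1% were higher and 29.8% lower in Sh2b3-/- cells, and 27.8% and 31.6% in wild-type cells. Foxo1, a transcription factor of naive T cells, was at −1.42 ± 0.11 (adjusted p = 1.2e-11) in Sh2b3-/- cells, and Satb1, a chromatin organiser, at −1.20 ± 0.12 (adjusted p = 4.0e-09). Txnip, which restrains glucose uptake, was at −1.72 ± 0.18 (adjusted p = 4.3e-09) in Sh2b3-/- and −1.61 ± 0.11 (adjusted p = 1.8e-14) in wild-type cells, and Bach2, a repressor that keeps T cells from effector fate, at 1.14 ± 0.12 (adjusted p = 9.8e-09) and 1.25 ± 0.084 (adjusted p = 9.9e-15). In wild-type cells Btg1, an antiproliferative factor, fell (−0.81 ± 0.068 (adjusted p = 2.0e-12)) and Slfn2, needed for T cell quiescence, rose (1.001 ± 0.087 (adjusted p = 4.3e-12)).

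Of the 10 genes of the BCL2 family and the GABARAP proteins, which GIMAP proteins are known to bind or work beside, 6 rose and 2 fell at 24 h in Sh2b3-/- cells (median 0.44, against 30.1% and 29.8% of all genes), and 5 rose and 1 fell in wild-type cells (median 0.23, against 27.8% and 31.6%). Bcl2l1, which encodes the antiapoptotic BCL-XL, was at 3.54 ± 0.24 (adjusted p = 7.5e-12) in Sh2b3-/- and 2.86 ± 0.18 (adjusted p = 2.1e-14) in wild-type cells. Bcl2l11, which encodes the proapoptotic BIM, was at 1.35 ± 0.15 (adjusted p = 7.9e-09) and 1.57 ± 0.076 (adjusted p = 2.0e-18), and Gabarapl1, an ATG8-like protein of autophagosomes, at 2.82 ± 0.28 (adjusted p = 3.7e-09) and 2.80 ± 0.15 (adjusted p = 5.9e-17). Bax, an effector of apoptosis, rose in Sh2b3-/- cells (0.72 ± 0.13 (adjusted p = 2.6e-05)), and Bcl2, the antiapoptotic founder of its family, fell in wild-type cells (−1.29 ± 0.12 (adjusted p = 1.4e-11)).

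Of 11 other GTPases and GTPase regulators of immune cells, 5 rose and 4 fell at 24 h in Sh2b3-/- cells (median 0.37, against 30.1% and 29.8% of all genes), and 6 rose and 4 fell in wild-type cells (median 0.39, against 27.8% and 31.6%). Arhgap15, a GTPase-activating protein, was at −1.18 ± 0.11 (adjusted p = 4.0e-10) in Sh2b3-/- and −1.08 ± 0.10 (adjusted p = 1.4e-11) in wild-type cells. Of the interferon-inducible GTPases in the list, Gbp2 was at 2.85 ± 0.39 (adjusted p = 1.6e-06) in Sh2b3-/- cells and Irgm2 at 2.07 ± 0.13 (adjusted p = 8.5e-15) and Irgm1 at 1.46 ± 0.11 (adjusted p = 5.4e-14) in wild-type cells. Of the 10 protein-coding genes next to the cluster, 5 on each side, 5 passed the filter on low counts, of which 1 rose and 2 fell in Sh2b3-/- cells and 1 rose and 3 fell in wild-type cells at 24 h. The shares of all genes are those just given, and so few genes are not read as a result. Repin1, a zinc finger gene on the Gimap8 side, rose, by 1.45 ± 0.34 (adjusted p = 5.7e-04) in Sh2b3-/- and 1.33 ± 0.24 (adjusted p = 1.1e-05) in wild-type cells. It was low at 0 h, averaging 3.81 CPM in Sh2b3-/- and 3.65 CPM in wild-type cells. Whether the flanking genes moved with the Gimap genes was not tested.

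Between genotypes no gene of the naive list and none of the BCL2 and GABARAP list was called at any of the 5 comparisons by edgeR, and 1, 5, 1, 1 and 3 of 20 and 0, 1, 2, 3 and 0 of 10 had an unadjusted p under 0.05, in the order 0, 2, 6 and 24 h and anti-IL-2. Nothing is read from these unadjusted counts, which have no share of all genes beside them. The other immune GTPases had 2 genes higher in Sh2b3-/- cells at 24 h, Igtp at 0.54 ± 0.10 (adjusted p = 0.034) and Gbp2 at 0.66 ± 0.13 (adjusted p = 0.036). With anti-IL-2 there were 3 (0.35% of all genes called), Igtp at 0.56 ± 0.069 (adjusted p = 8.9e-04), Irgm1 at 0.58 ± 0.091 (adjusted p = 0.0096) and Irgm2 at 0.39 ± 0.074 (adjusted p = 0.028). No Gimap member was called in either comparison.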

How the data were processed

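The authors deposited 1 table of raw read counts per gene, with a column for each of 60 libraries. featureCounts 2.0.1 (Subread) and STAR 2.7.9a, with the build GRCm39, are named in the submitters' processing notes, beside Picard, SAMtools and FastQC. Per the labels, RNA came from a Qiagen or a Zymo kit, without saying which served which library. Strand setting and treatment of reads with several matches are not given in the sources used here. GENCODE M21 named 52081 identifiers, holding 99.6% of the counts. Over the 182 pairs of libraries within groups, none agreed within sampling noise (smallest chi-square per degree of freedom 6.88).

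Under R 4.3.3, edgeR 4.0.16 was fitted with filterByExpr (minimum count 10), TMM scaling and a robust quasi-likelihood F test, adjusted by Benjamini-Hochberg over all genes tested and called at an adjusted p under 0.05. Genotypes were compared within a time, times within a genotype, and genotype by time over both, 16 comparisons in all, with the library set as a term where more than 1 set was present. The anti-IL-2 contrast was fitted for description. CPM are TMM-scaled over all 60 libraries, and per-kb values use GENCODE exon lengths. The members and lists were chosen with earlier results of these data known. All members are named, and from each list up to 4 genes by smallest adjusted p in the comparison described, of which 1 is not reported here. On simulated counts, 63 to 86% of genes changed by 1 log2 unit were recovered in the genotype comparisons and 52 to 71% in the time comparisons. In the genotype by time comparisons 44 to 54% were. Recovery of smaller changes is not given. DESeq2 1.42.0 and the other alternatives are described in the closing section.

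Library numbers 10 apart (2 and 6 h) or 20 apart (24 h) were checked for pairing by the correlation of deviations from group means. Every one of the 5 pairs exceeded 0.1 for Sh2b3-/- cells between 2 and 0 h (0.11 to 0.59) and between 6 and 2 h (0.22 to 0.74). By that rule alone the numbers were taken to pair these libraries, which no label states. The correlation was best with the own number in only 2 of 5 pairs between 2 and 0 h and in 4 of 5 between 6 and 2 h. In wild-type cells between 2 and 0 h it was best in 5 of 5, although only 4 exceeded 0.1. The pairing is therefore uncertain in both genotypes.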

Additional observations from a re-analysis of the deposited data

Results flagged for a closer look

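Gimap7 in wild-type replicate 4 at 2 h stood apart from its group, at 68.8 CPM where the other 4 libraries held 40.1 to 46.1 CPM, and its gap took 0.79 of the group's whole range. It was 1 of 64 member and group pairs examined for such a gap, where chance alone gives about 1 in 20 (3.2 here). Values of the wild-type comparisons without this library stand in the report.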

How the results depend on the processing

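Each comparison was repeated with DESeq2 size factors, no filter on low counts, the DESeq2 Wald test, each library set on its own, no term for the set, library numbers as a replicate block (time comparisons), without Sh2b3-/- libraries 8, 18 and 28, and without each library of groups of 4 or 5. Of 1056 values of single members under these settings, 979 kept their direction and their side of the threshold, 44 lost a call, 7 gained one and 26 changed sign, none of them while called. The genotype and genotype by time counts of called members were 0 under every setting. The falls of Gimap6, Gimap3 and Gimap8 at 24 h and the rise of Gimap4 at 2 h were called in both genotypes under every setting. With the replicate block the members called in each time comparison were as many as without it, except that Sh2b3-/- cells at 2 h had 3 called lower in place of 2, Gimap7 being added at −0.39 log2 units (adjusted p = 0.036). In the time comparisons where the numbers were not taken to pair libraries, the lowest correlations were 0.065, −0.13, −0.014 and −0.11 in wild-type cells (2, 6 and 24 h against 0 h, 6 h against 2 h) and 0.026 and −0.12 in Sh2b3-/- cells (6 and 24 h against 0 h).

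Counts of called members moved as follows, and the cause was not tested. In wild-type cells without the set term, 3 were higher at 2 h, 0 at 6 h and 1 at 24 h, in place of 1, 1 and 2, and in set B alone 0 were higher at 24 h. Leaving out single libraries gave 0 to 1 higher at 6 h. Those lower at 2 h were 2 with no filter or without the set term, in place of 3, and 2 to 3 without single libraries, Gimap5 being lost with no filter at −0.24, adjusted p = 0.051. In Sh2b3-/- cells 1 was lower at 2 h with DESeq2 size factors, no filter, the Wald test, no set term or without libraries 8, 18 and 28, in place of 2, and 1 to 3 without single libraries. At 6 h 1 was higher with DESeq2 size factors, in place of 2, and 1 to 2 without single libraries. At 24 h 3 were lower in set B alone, in place of 5. From 2 to 6 h 1 was lower without libraries 8, 18 and 28, in place of 2, and 1 to 2 without single libraries. Without the set term calls were also gained, for Gimap9 in Sh2b3-/- and wild-type cells at 2 h and in Sh2b3-/- cells at 6 h (values in the report), for Gimap6 in wild-type cells at 2 h (0.24, adjusted p = 0.024) and for Gimap8 in Sh2b3-/- cells at 6 h (−0.23, adjusted p = 0.048). Calls lost without it, beside those given in the report, were as follows: Gimap7 in wild-type cells at 2 h was at −0.15, adjusted p = 0.37, Gimap1 at 6 h at 0.19, adjusted p = 0.14 in Sh2b3-/- and 0.079, adjusted p = 0.44 in wild-type cells, and Gimap3 and Gimap5 in Sh2b3-/- cells at 2 h at 0.21, adjusted p = 0.098 and −0.20, adjusted p = 0.10.

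Values that changed sign were small. Between genotypes they were Gimap8 at 0 h (0.18) and Gimap3 at 24 h (0.023), both in set B alone. In wild-type cells they were, without the set term, Gimap1 at 2 h (−0.032), Gimap9 at 6 h (0.091) and Gimap1 at 24 h (0.035, and 0.018 in set C alone), and Gimap9 at 2 h without single libraries (−0.034 to 0.074). In Sh2b3-/- cells they were Gimap1 at 2 h without the set term (−0.0080), Gimap3 at 6 h with no filter (0.013), in set A alone (0.0095) and without single libraries (−0.11 to 0.052), Gimap1 at 24 h in set B alone (0.067), and Gimap9 at 24 h without the set term (−0.17) and without single libraries (−0.041 to 0.24). From 2 to 6 h without single libraries they were Gimap4 (−0.066 to 0.053), Gimap9 (−0.17 to 0.012) and Gimap5 (−0.018 to 0.13).

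The number of genes called between genotypes, over all genes, was 81 at 0 h, but 477 with no filter, 163 by the Wald test, 28 without the set term and 6 in set A. Without libraries 8, 18 and 28 it was 1.06% of genes tested at 0 h, in place of 0.633%. At 2 h it was 8, but 4 with DESeq2 size factors, 230 with no filter, 122 by the Wald test, 45 without libraries 18 and 28 (and 8), and 3 to 63 without single libraries. At 6 h it was 4, but 28 by the Wald test. At 24 h it was 48, but 362 with no filter, 232 by the Wald test, 3 without the set term, 11 in set B and 8 to 361 without single libraries. With anti-IL-2 it was 47, but 191 with no filter, 141 by the Wald test and 10 to 76 without single libraries. Genotype by time called 0 at 2 and 6 h, but 118 and 123 with no filter and 3 and 2 by the Wald test, and 22 at 24 h, but 281 with no filter, 80 by the Wald test, 0 in set B and 11 to 69 without single libraries. In set C it called 1.07% of genes tested at 24 h, in place of 0.14%.

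Depth was not limiting for the members: the lowest count of any of them in any library was 217, in Gimap7, the least abundant. The genotype comparisons rest on 4 or 5 libraries a group after 0 h, and all libraries with anti-IL-2 form a set of their own.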
